A study of Homo sapiens with 18 samples.

Results

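The response of LNCaP cells to loss of PDIA1 was compared between 96 h and 48 h by asking, gene by gene, whether the effect of the knockdown differed between the times. The quantity tested was the effect at 96 h (siPDIA1 minus control siRNA) minus the effect at 48 h, on log2(RPKM + 1), where RPKM divides a gene's reads by its length and by the size of the library. The difference passed the test (adjusted p under 0.05, called below) for 639 of the 11685 genes tested (5.47%), those that averaged 1 RPKM or more across 18 libraries. It was positive for 292 genes (2.50%) and negative for 347 (2.97%). By whether the effect at each time was itself called, these genes were sorted into growing effects (same sign at both times, larger at 96 h; 238 genes), late effects (called at 96 h and not at 48 h; 280), reversing effects (called at both times with opposite signs; 34), early effects (called at 48 h and not at 96 h; 54) and fading effects (same sign, smaller at 96 h; 33).

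LNCaP is a prostate cancer line of luminal type, grown here in medium with 10% fetal bovine serum. Cells were transfected with siRNA by the lipid reagent RNAiMAX, and the groups used were siPDIA1 at 96 h, the control siRNA siNC at 96 h, siPDIA1 at 48 h and siNC at 48 h, with 3 libraries each (12 in all). A further 6 libraries of siPDIA5, 3 at each time, shared the fit and served for a comparison without control libraries. Libraries were stranded and polyA-selected. Whether a group's libraries stem from separate cultures is not stated in the labels. The p-values therefore reflect only how these libraries vary, and that variation may be technical.

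PDIA1, encoded by P4HB, is the founding protein disulphide isomerase, an enzyme that makes and reshuffles disulphide bonds of secretory proteins inside the endoplasmic reticulum (ER). It is also the beta subunit of collagen prolyl 4-hydroxylase. When folding in the ER fails, sensors in its membrane raise chaperones through the factors ATF6 and XBP1 and slow translation through the kinase PERK, which favours translation of ATF4, an activator of amino acid synthesis and transport genes. An siRNA lowers its target's RNA within a day or so and loses strength as dividing cells dilute it.

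The luminal markers of the line were present in every library: KLK3 lay between 222.5 and 355 RPKM and HOXB13 between 148.5 and 183.4 RPKM in the 12 libraries, and the summed list of 10 was 1180 to 1210 RPKM after siPDIA1 and 1280 to 1340 after siNC at 96 h, and 1040 to 1060 after siPDIA1 and 1200 to 1210 after siNC at 48 h. None of the 8 basal epithelial or 10 leukocyte markers reached the filter, while of the stromal list COL1A1 and ACTA2 and of the endothelial list VWF did. The summed stromal list was 18 to 19.8 RPKM after siPDIA1 and 9.81 to 10.7 after siNC at 96 h, and 8.92 to 9.25 after siPDIA1 and 3.69 to 4.56 after siNC at 48 h. ACTA2 alone had 15.2, 15.0 and 16.3 RPKM after siPDIA1 and 6.76, 6.83 and 6.94 after siNC at 96 h, while the fibroblast markers COL1A2 and DCN were at 0 in 11 and 9 of the 12 libraries and at most 0.0173 and 0.0103 RPKM in the rest. Estimated depth was 32.3 to 43.9 (in units of 1e6 reads) in the 12 libraries. Across genes, which are not independent replicates, Pearson's r between libraries of 1 group was 0.983 to 0.993 on the log2 scale except for replicate 1 of siPDIA1 at 96 h, with r of 0.971 and 0.972 to its partners. Without it 515 genes were called. Fewer were called without some other libraries, such as replicate 3 of siPDIA1 at 96 h (442) or replicate 1 of siPDIA1 at 48 h (434). That replicate 3 at 96 h had 29505 genes above 0 RPKM, against 20813 to 24882 in the rest of the 12 libraries. Because the libraries are bulk RNA, fewer cells of a kind and less RNA per cell cannot be told apart.

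At 96 h the effect of siPDIA1 was called for 5294 genes (45.3% of those tested) and at 48 h for 3897 (33.4%). Many effects had no called difference: 2773 genes were called at both times with the same sign and without one. Their median size was 0.44 at 96 h and 0.38 at 48 h on the log2 scale. Whether the effect of each was equal at both times was not tested. The growing class had a median size of 1.002 at 96 h against 0.43 at 48 h; 120 of its genes were raised by siPDIA1 and 118 lowered. In the late class, 119 genes were raised and 161 lowered at 96 h, with a median size of 0.50 at 96 h against 0.087 at 48 h. A further 1936 genes were called at 96 h and not at 48 h without a called difference, and 765 at 48 h and not at 96 h, so a call at 1 time alone does not show that an effect is late or early. No gene had a called difference without a called effect at either time. Just inside the threshold lay PFN1, whose difference was -0.33 ± 0.093 (adjusted p = 0.0498), and just outside it ZP3, at 0.64 ± 0.18 (adjusted p = 0.0503). Class sizes depend on single libraries. Without siPDIA1 replicate 1 or 2 at 48 h, 231 and 229 differences were negative and 158 and 156 effects growing. Early effects numbered 34 and 29 without the same libraries and 94 without siNC replicate 2 at 96 h. Reversing effects numbered 22 and 21 without siPDIA1 replicate 2 or 3 at 48 h. Fading effects numbered 21, 20 and 16 without siPDIA1 replicate 1, 2 or 3 at 96 h, 14 without siNC replicate 3 at 96 h, 19 and 13 without siPDIA1 replicate 1 or 2 at 48 h, and 16 without siNC replicate 2 at 48 h. The late class stayed between 192 and 338.

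**Figure D1:**
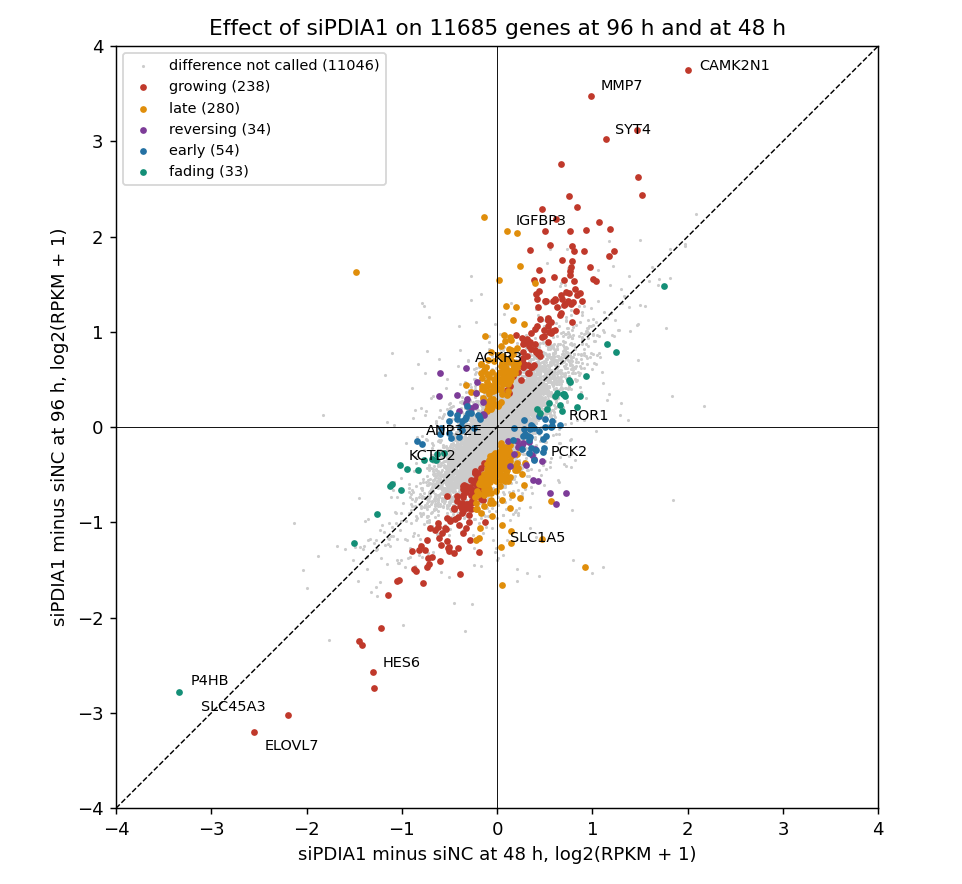
Effect of siPDIA1 at 96 h (vertical) against the effect at 48 h (horizontal) for every gene tested, as siPDIA1 minus siNC in log2(RPKM + 1); colours mark the classes and the dashed line equal effects. The 238 growing genes lie farther from 0 on the vertical axis, most of the 280 late genes lie near 0 on the horizontal axis, and P4HB, at -2.78 at 96 h and -3.33 at 48 h, lies above the dashed line.

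A difference of this kind can come from a change with time after siPDIA1, from a change with time after siNC, or from both. Between 96 h and 48 h the siPDIA1 libraries differed for 3591 genes (30.7%) and the siNC libraries for 2839 (24.3%). Of the siPDIA1 changes 41.2% were higher at 96 h, and 52.5% with libraries centred on their medians. After siNC, 1285 genes were higher and 1554 lower at 96 h, with 801 and 854 without siNC replicate 1 at 96 h, 830 and 1015 without replicate 3 at 96 h, and 945 lower without replicate 2 at 48 h. Of the 639 genes, 307 (48.0%) had a called change with time after siPDIA1 and not after siNC. The change was called only after siNC for 146 (22.8%), such as TTR, a thyroid hormone carrier. Both changes were called for 180 genes, in the same direction for 100 and in opposite directions for 80, and neither for 6. Among the genes with a positive difference, 164 of 292 moved only after siPDIA1 and 51 only after siNC; among those with a negative difference the counts were 143 and 95 of 347. The split shows where the libraries differ and shares its libraries with the test that chose the genes, so it is a description.

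**Figure D2:**
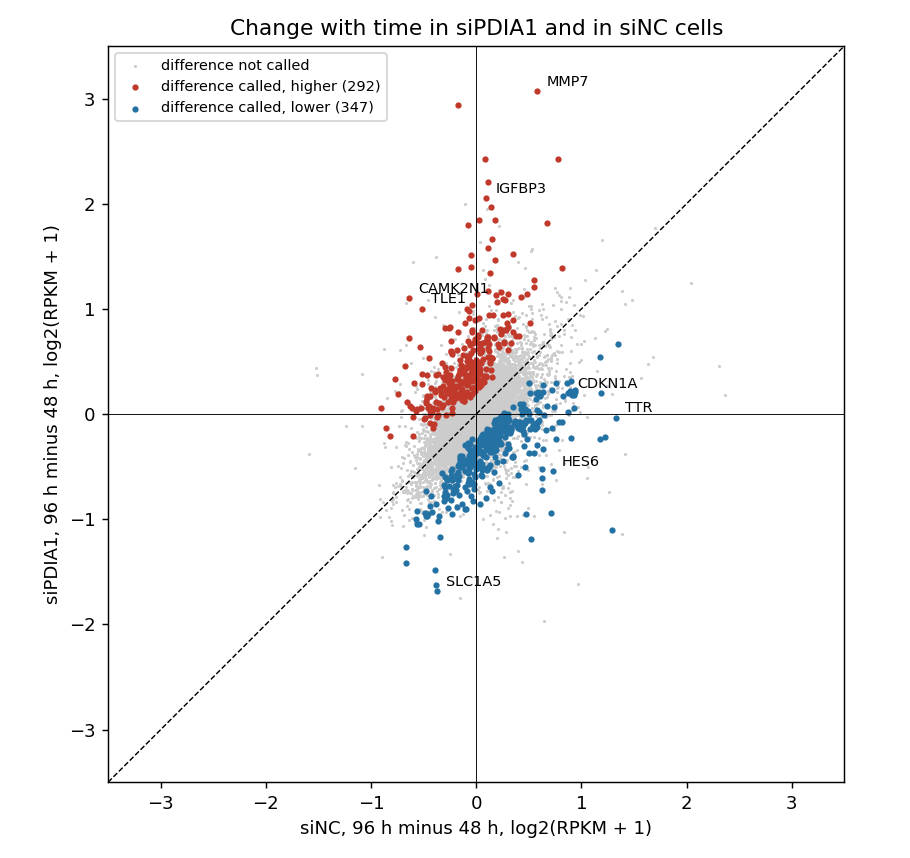
Change between 96 h and 48 h after siPDIA1 (vertical) against the change after siNC (horizontal), both as 96 h minus 48 h in log2(RPKM + 1). Red points are the 292 genes with a positive called difference and blue points the 347 with a negative one; MMP7 changed by 3.07 after siPDIA1 and 0.58 after siNC, and CDKN1A by 0.20 after siPDIA1 and 0.87 after siNC.

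The targeted gene itself, P4HB (chr17:81843159-81860694, minus strand, GENCODE 29 on GRCh38), was among the fading effects. It had 10.1, 8.17 and 9.26 RPKM after siPDIA1 and 72.4, 63.5 and 70.9 after siNC at 96 h. P4HB at 48 h had 5.71, 5.29 and 6.2 RPKM after siPDIA1 and 66.6, 66.3 and 67.7 after siNC. The siPDIA1 libraries lay far below the siNC libraries at each time, without overlap, at 13.3% of the siNC mean at 96 h and 8.58% at 48 h. The difference of the effect was 0.55 ± 0.10 (adjusted p = 0.00272) and came from the siPDIA1 libraries, which were higher at 96 h than at 48 h by 0.59 ± 0.068, while the siNC libraries differed by 0.041 ± 0.068. Protein was not measured.

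In the family of disulphide isomerases every called difference was positive, that of the targeted P4HB among them. Called or not, 9 members tested had a positive sign and 8 a negative one. Of the 17 tested of 22 listed, P4HB included, 4 had a called positive difference and 0 a negative one (23.5%, against 5.47% of all genes), and the median difference was 0.041, against -0.020 over all genes tested. The count of called isomerases was 2 without siNC replicate 3 at 96 h, siPDIA1 replicate 1 or 3 at 48 h, or siNC replicate 3 at 48 h. PDIA4, a large isomerase with several thioredoxin folds, had 124, 124 and 127 RPKM after siPDIA1 and 97.7, 94.7 and 93.3 after siNC at 96 h. PDIA4 at 48 h had 99.6, 104 and 99.0 RPKM after siPDIA1 and 96.6, 90.7 and 93.5 after siNC. Its siPDIA1 libraries at 96 h were above the other siPDIA1 libraries and all siNC libraries, and the difference was 0.28 ± 0.052 (adjusted p = 0.00402). After siPDIA5, PDIA4 had 123, 123 and 117 RPKM at 96 h and 127, 128 and 131 at 48 h. PDIA6, which acts on BiP clients and on the ER stress sensors, differed by 0.24 ± 0.059 (adjusted p = 0.0279), a call lost when any 1 of 7 libraries was left out (adjusted p = 0.052 to 0.0757). AGR2, an isomerase of mucin-secreting epithelia, was low, with 3.65, 4.3 and 3.72 RPKM after siPDIA1 and 2.61, 1.98 and 2.27 after siNC at 96 h. AGR2 at 48 h had 2.03, 2.32 and 1.83 RPKM after siPDIA1 and 2.26, 1.89 and 2.37 after siNC. Among the siPDIA1 and siNC libraries only those of siPDIA1 at 96 h stood clear of the rest, while the siPDIA5 libraries lay between 2.51 and 3.94 RPKM, and its difference was 0.63 ± 0.17 (adjusted p = 0.0376). PDIA5, the other isomerase targeted in the study, had an effect of 0.086 (adjusted p = 0.411) at 96 h and 0.21 (adjusted p = 0.0533) at 48 h and no called difference.

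The 4 protein-coding genes with the largest difference among the growing rises encode secreted, secretory and receptor proteins and a kinase inhibitor. MMP7 (chr11:102520508-102530753), the matrix metalloproteinase matrilysin of secretory epithelia, had 19.1, 21.3 and 19.6 RPKM after siPDIA1 and 0.841, 0.90 and 0.912 after siNC at 96 h. MMP7 at 48 h had 1.31, 1.84 and 1.38 RPKM after siPDIA1 and 0.234, 0.0776 and 0.499 after siNC. The siPDIA1 libraries at 96 h were well above every other library, and the siPDIA1 libraries at 48 h already lay above those of siNC; the difference was 2.49 ± 0.21 (adjusted p = 2.66e-06). SYT4 (chr18:43267878-43277650), a synaptotagmin of regulated secretion, had 95.3, 94.1 and 99.9 RPKM after siPDIA1 and 10.7, 11.4 and 10.9 after siNC at 96 h. SYT4 at 48 h had 27.005, 27.4 and 26.6 RPKM after siPDIA1 and 10.9, 12.1 and 12.1 after siNC. The effect was 3.02 ± 0.046 at 96 h and 1.14 ± 0.046 at 48 h, and the siNC libraries differed between the times by -0.081 (adjusted p = 0.21). CAMK2N1 (chr1:20482391-20486220), an inhibitor of the calcium/calmodulin-dependent kinase CaMKII, had 187, 189 and 191 RPKM after siPDIA1 and 14.4, 12.6 and 12.5 after siNC at 96 h. CAMK2N1 at 48 h had 85.7, 88.2 and 87.9 RPKM after siPDIA1 and 22.8, 19.8 and 20.5 after siNC. With time it rose after siPDIA1 by 1.10 ± 0.059 and fell after siNC by 0.64 ± 0.059. OR51E1, an olfactory receptor of prostate epithelium, had 4.87, 4.05 and 5.37 RPKM after siPDIA1 and 0.343, 0.0703 and 0.124 after siNC at 96 h. OR51E1 at 48 h had 0.528, 0.542 and 0.716 RPKM after siPDIA1 and 0.0872, 0.185 and 0.182 after siNC. Its siNC libraries were near 0, and the difference on the log2(RPKM + 1) scale, 1.82 ± 0.20 (adjusted p = 4.67e-05), understates the change of so low a gene.

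Several growing falls had control levels that moved with time. SECTM1 (chr17:82321024-82334074), a secreted and membrane protein of the Golgi, had 7.34, 6.85 and 6.94 RPKM after siPDIA1 and 19.5, 17.7 and 19.9 after siNC at 96 h. SECTM1 at 48 h had 8.36, 9.12 and 7.78 RPKM after siPDIA1 and 10.1, 9.45 and 9.65 after siNC. After siPDIA1 its change with time was -0.23 ± 0.062 and after siNC it was 0.90 ± 0.062, and its difference was -1.13 ± 0.088 (adjusted p = 1.09e-06). HES6, a transcriptional regulator of the HES family, had 33.2, 33.5 and 33.7 RPKM after siPDIA1 and 231, 173 and 213 after siNC at 96 h. HES6 at 48 h had 52.7, 51.3 and 44.4 RPKM after siPDIA1 and 117, 118 and 135 after siNC. The 3 siNC libraries at 96 h spread widely, and all lay above the siPDIA1 libraries; the difference was -1.27 ± 0.14 (adjusted p = 5.06e-05). CAPN5, a calpain protease, moved after siPDIA1 by -0.86 (adjusted p = 5.13e-07) and after siNC by 0.039 (adjusted p = 0.733), with 2.24, 2.48 and 2.37 RPKM after siPDIA1 against 6.82, 6.87 and 6.22 after siNC at 96 h. CDKN1A, the cyclin-dependent kinase inhibitor p21, had 171, 169 and 168 RPKM after siPDIA1 and 375, 382 and 411 after siNC at 96 h. CDKN1A at 48 h had 147, 147 and 147.8 RPKM after siPDIA1 and 219, 204 and 215 after siNC. It rose with time by 0.20 ± 0.044 after siPDIA1 and by 0.87 ± 0.044 after siNC, and its difference was -0.67 ± 0.063 (adjusted p = 9.14e-06).

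Late effects, with little or no change at 48 h, were led by IGFBP3 (chr7:45912245-45921874), which encodes the main carrier of insulin-like growth factors in plasma. It had 9.07, 9.04 and 8.86 RPKM after siPDIA1 and 1.38, 1.51 and 1.3 after siNC at 96 h. IGFBP3 at 48 h had 1.56, 1.39 and 1.28 RPKM after siPDIA1 and 1.25, 1.39 and 1.1 after siNC. Among the siPDIA1 and siNC libraries, every one but those of siPDIA1 at 96 h lay between 1.10 and 1.56 RPKM, and the effect was 2.06 ± 0.080 at 96 h and 0.10 (adjusted p = 0.365) at 48 h. After siPDIA5, IGFBP3 had 5.37, 5.67 and 4.9 RPKM at 96 h and 2.06, 1.53 and 1.76 at 48 h, so its siPDIA5 libraries at 96 h also lay above every siNC library. TLE1, a Groucho-type corepressor, had 20.12, 17.3 and 18.9 RPKM after siPDIA1 and 5.56, 6.25 and 5.54 after siNC at 96 h. TLE1 at 48 h had 8.36, 9.23 and 9.02 RPKM after siPDIA1 and 8.85, 9.1 and 8.19 after siNC. It rose after siPDIA1 by 1.002 ± 0.078 and fell after siNC by 0.52 ± 0.078. SDCBP2, the PDZ protein syntenin-2, lay between 0.0907 and 0.982 RPKM in all libraries except those of siPDIA1 at 96 h, which had 5.4, 5.03 and 4.99 RPKM. NOS3, the endothelial nitric oxide synthase, had 2.59, 2.63 and 3.99 RPKM after siPDIA1 against 0.23, 0.281 and 0.221 after siNC at 96 h, and its difference was 1.45 ± 0.16 (adjusted p = 5.07e-05). NOS3 at 48 h had 0.468, 0.576 and 0.530 RPKM after siPDIA1 and 0.275, 0.395 and 0.199 after siNC. The groups did not overlap at 48 h, but the effect there was not called, at 0.24 (adjusted p = 0.115). After siPDIA5, NOS3 had 27.3, 28.0 and 26.9 RPKM at 96 h and 1.71, 2.26 and 1.65 at 48 h. HSPB8, a small heat shock protein, had 3.38, 3.78 and 3.48 RPKM after siPDIA1 and 1.003, 0.772 and 0.882 after siNC at 96 h. HSPB8 at 48 h had 0.519, 0.496 and 0.737 RPKM after siPDIA1 and 0.256, 0.625 and 0.58 after siNC. Its siPDIA1 libraries at 96 h stood above the other siPDIA1 libraries and all siNC libraries, with a difference of 1.17 ± 0.14 (adjusted p = 8.14e-05). After siPDIA5, HSPB8 had 13.8, 14.4 and 14.3 RPKM at 96 h and 2.45, 2.1 and 2.38 at 48 h.

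Late falls included nutrient carriers and secreted proteins. SLC1A5 (chr19:46774883-46788594), the sodium-coupled transporter ASCT2 that brings glutamine into the cell, had 12.4, 14.3 and 13.0 RPKM after siPDIA1 and 32.9, 32.4 and 33.9 after siNC at 96 h. SLC1A5 at 48 h had 43.9, 47.1 and 42.9 RPKM after siPDIA1 and 42.9, 43.0 and 43.8 after siNC. The groups overlapped at 48 h and were far apart at 96 h, and the difference was -1.31 ± 0.074 (adjusted p = 2.35e-08). It fell with time after siPDIA1 by 1.68 ± 0.053 and after siNC by 0.38 ± 0.053. TTR, the thyroid hormone carrier transthyretin, had 2.21, 2.2 and 1.16 RPKM after siPDIA1 and 7.41, 4.4 and 5.17 after siNC at 96 h. TTR at 48 h had 1.64, 2.62 and 1.49 RPKM after siPDIA1 and 1.43, 1.73 and 1.68 after siNC. Here the siNC libraries at 96 h were the only high ones, and siPDIA1 did not differ detectably between the times, at -0.036 (adjusted p = 0.901). S100P, a calcium-binding protein of the S100 family, had 2.62, 4.22 and 4.04 RPKM after siPDIA1 and 9.2, 9.4 and 9.23 after siNC at 96 h. S100P at 48 h had 6.51, 8.18 and 8.69 RPKM after siPDIA1 and 3.04, 6.28 and 7.48 after siNC. The difference was -1.64 ± 0.31 (adjusted p = 0.00548), and the siNC libraries at 48 h spread from 3.04 to 7.48 RPKM. ID2, which blocks DNA binding of helix-loop-helix factors, had 2.02, 2.83 and 2.81 RPKM after siPDIA1 and 6.6, 6.63 and 6.29 after siNC at 96 h. ID2 at 48 h had 5.004, 3.97 and 4.25 RPKM after siPDIA1 and 3.66, 3.34 and 4.74 after siNC. Its effect was -1.09 ± 0.11 at 96 h and 0.14 (adjusted p = 0.35) at 48 h.

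In the reversing class, 19 genes were lowered at 96 h and raised at 48 h, and 15 were raised at 96 h and lowered at 48 h. PCK2 (chr14:24094053-24110598), the mitochondrial phosphoenolpyruvate carboxykinase, had 23.0, 24.8 and 23.6 RPKM after siPDIA1 and 31.5, 29.7 and 31.1 after siNC at 96 h. PCK2 at 48 h had 53.4, 58.8 and 51.9 RPKM after siPDIA1 and 37.2, 42.1 and 38.6 after siNC. No library of a group overlapped those of its partner at either time, with an effect of -0.36 ± 0.063 at 96 h and 0.47 ± 0.063 at 48 h. ID1, a relative of ID2, had an effect of -0.69 (adjusted p = 0.00307) at 96 h and 0.55 (adjusted p = 0.0189) at 48 h, although its groups overlapped at 48 h. ADM2, an adrenomedullin-like peptide hormone, shared this course, at -0.33 (adjusted p = 0.00494) at 96 h and 0.38 (adjusted p = 0.00271) at 48 h. In the other direction, ACKR3 (chr2:236567787-236582358), a scavenging receptor for the chemokine CXCL12, had 67.8, 56.8 and 64.6 RPKM after siPDIA1 and 40.9, 41.1 and 39.6 after siNC at 96 h. ACKR3 at 48 h had 27.6, 28.3 and 28.4 RPKM after siPDIA1 and 34.7, 36.9 and 34.8 after siNC. It was higher than control at 96 h, by 0.62 ± 0.064, and lower at 48 h, with an effect of -0.33 ± 0.064. UGT2B15, a glucuronosyltransferase that inactivates androgens and has near-identical relatives with which reads may be shared, had 25.6, 26.2 and 25.1 RPKM after siPDIA1 and 18.4, 20.2 and 22.5 after siNC at 96 h. UGT2B15 at 48 h had 14.5, 16.3 and 15.6 RPKM after siPDIA1 and 24.0, 24.1 and 24.2 after siNC. BMF, a BH3-only protein of the BCL2 family, had an effect of 0.25 (adjusted p = 0.00624) at 96 h and -0.32 (adjusted p = 0.00151) at 48 h.

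Effects that shrank were fewer and, on the log2(RPKM + 1) scale, smaller. On that scale none of the 33 fading and 54 early genes differed by 2-fold. The scale understates low genes. In RPKM, the ratio of the siPDIA1 to the siNC mean was 1.037 at 96 h and 2.425 at 48 h for ROR1, and 0.708 and 1.839 for GLYCTK. Among the fading ones, KCTD2 (chr17:75032575-75065889), a BTB-domain protein, had 6.69, 7.02 and 6.62 RPKM after siPDIA1 and 8.8, 8.9 and 10.2 after siNC at 96 h. KCTD2 at 48 h had 4.77, 5.05 and 5.19 RPKM after siPDIA1 and 11.6, 11.1 and 10.9 after siNC. It was lowered at both times, with an effect of -0.40 ± 0.055 at 96 h and -1.02 ± 0.055 at 48 h. LPCAT1, an enzyme of phosphatidylcholine remodelling, had 22.7, 24.7 and 22.7 RPKM after siPDIA1 and 19.6, 20.3 and 19.3 after siNC at 96 h. LPCAT1 at 48 h had 30.2, 29.3 and 29.2 RPKM after siPDIA1 and 18.3, 17.9 and 19.0 after siNC. It was raised by 0.23 ± 0.045 at 96 h and by 0.66 ± 0.045 at 48 h. ZCCHC3, a zinc finger protein of nucleic acid sensing, was likewise raised by 0.21 ± 0.072 at 96 h and by 0.84 ± 0.072 at 48 h. Early effects included ANP32E, a histone chaperone for H2A.Z, with 5.93, 5.88 and 6.82 RPKM after siPDIA1 and 5.74, 7.25 and 8.04 after siNC at 96 h. ANP32E at 48 h had 5.43, 5.69 and 6.45 RPKM after siPDIA1 and 11.4, 12.3 and 10.2 after siNC. The siNC libraries at 48 h were the high ones, and the effect was -0.14 (adjusted p = 0.28) at 96 h and -0.84 (adjusted p = 1.41e-05) at 48 h. ROR1, a receptor tyrosine kinase of Wnt5a, had 0.628, 0.763 and 0.928 RPKM after siPDIA1 and 0.76, 0.777 and 0.70 after siNC at 96 h. ROR1 at 48 h had 1.85, 1.54 and 1.59 RPKM after siPDIA1 and 0.643, 0.731 and 0.681 after siNC. Its effect was 0.019 (adjusted p = 0.882) at 96 h and 0.66 (adjusted p = 3.31e-05) at 48 h. TMEM123, a membrane mucin, had an effect of 0.067 (adjusted p = 0.414) at 96 h and -0.51 (adjusted p = 1.5e-05) at 48 h. SEMA6A, a semaphorin, had an effect of -0.18 (adjusted p = 0.127) at 96 h and -0.79 (adjusted p = 6.36e-06) at 48 h. The early rises RASD1, GLYCTK and IGF1R lost their calls when any 1 of 8, 10 and 8 libraries was left out, with adjusted p up to 0.105, 0.107 and 0.0757.

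**Figure D3:**
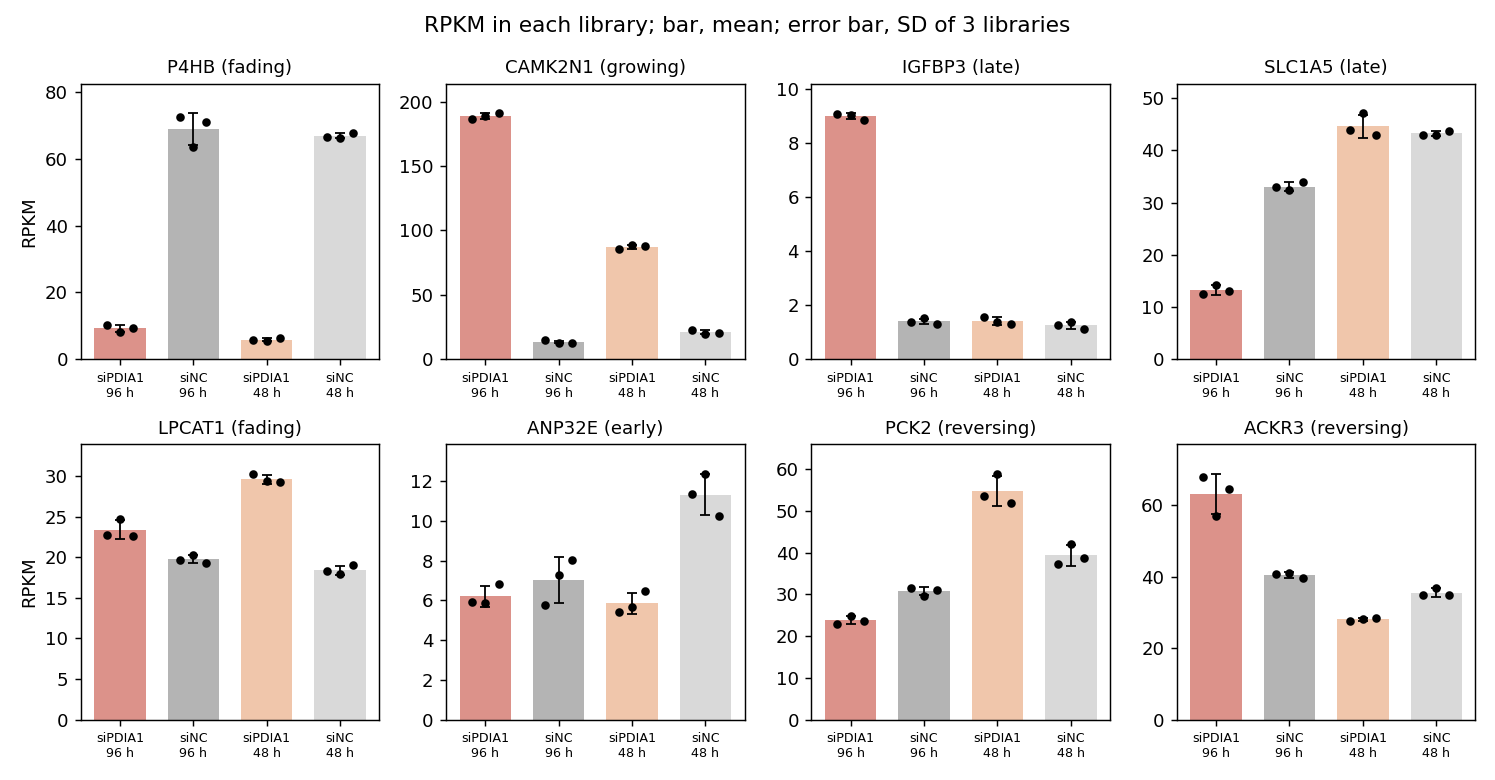
RPKM of 8 genes in each of the 12 libraries (points), with group means (bars) and SD of 3 libraries (error bars), siPDIA1 beside siNC at 96 h and then at 48 h. Of these 12 libraries IGFBP3 is high only in those of siPDIA1 at 96 h (8.86 to 9.07 RPKM), SLC1A5 is low only there (12.4 to 14.3), and PCK2 is below siNC at 96 h and above it at 48 h.

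Genes were also grouped by pathway, in lists written from general knowledge. Among targets of ATF4, many of which supply amino acids, every called difference was negative. Of 31 tested, 10 had a called negative difference and 0 a positive one (32.3%, against 5.47% of all genes), the median difference was -0.25, against -0.020 over all genes, and the list median of the effect was -0.21 at 96 h and 0.036 at 48 h. Leaving out 1 library at a time gave 8 to 11 called members. PSAT1, an enzyme of serine synthesis, had 49.3, 49.5 and 51.8 RPKM after siPDIA1 and 75.0, 80.4 and 77.5 after siNC at 96 h. PSAT1 at 48 h had 104, 103 and 99.9 RPKM after siPDIA1 and 93.6, 106 and 101 after siNC. SLC6A9, the glycine transporter GLYT1, had 2.14, 2.05 and 1.9 RPKM after siPDIA1 and 4.51, 4.96 and 6.16 after siNC at 96 h. SLC6A9 at 48 h had 7.29, 7.74 and 7.29 RPKM after siPDIA1 and 6.36, 7.96 and 7.1 after siNC. In each, only the siPDIA1 libraries at 96 h stood below all the others, and the differences were -0.65 ± 0.073 (adjusted p = 5.63e-05) and -1.08 ± 0.13 (adjusted p = 8.14e-05). PHGDH, the first enzyme of the serine pathway, SHMT2, its mitochondrial partner, and PYCR1, of proline synthesis, were also late, with differences of -0.50 (adjusted p = 0.00518), -0.47 (adjusted p = 0.0108) and -0.31 (adjusted p = 0.008). TRIB3, a pseudokinase that restrains ATF4, instead had an early effect, with 24.9, 24.99 and 24.95 RPKM after siPDIA1 and 27.9, 21.6 and 24.9 after siNC at 96 h. TRIB3 at 48 h had 35.9, 36.3 and 35.1 RPKM after siPDIA1 and 23.7, 23.5 and 23.8 after siNC. MTHFD2, of mitochondrial one-carbon metabolism, and CEBPG, a partner of ATF4, were early as well, with effects of -0.13 and 0.12 at 96 h and 0.34 and 0.44 at 48 h. ATF4 itself had a difference of -0.21 (adjusted p = 0.0902).

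CHAC1, a glutathione-degrading enzyme induced by ATF4, was a growing fall, with 2.9, 2.57 and 2.95 RPKM after siPDIA1 and 8.71, 6.08 and 7.03 after siNC at 96 h. CHAC1 at 48 h had 8.45, 9.75 and 9.27 RPKM after siPDIA1 and 11.4, 13.0 and 11.7 after siNC. The difference was -0.75 ± 0.16 (adjusted p = 0.00944). ASNS, asparagine synthetase, whose promoter holds the response element first described for amino acid starvation, had 1.1, 1.47 and 0.957 RPKM after siPDIA1 and 1.42, 1.33 and 1.98 after siNC at 96 h. ASNS at 48 h had 2.73, 2.99 and 2.86 RPKM after siPDIA1 and 2.15, 2.65 and 2.7 after siNC, and its difference did not pass the test, at -0.39 ± 0.15 (adjusted p = 0.15). The core of the amino acid response element (TGATG, any base, AA; both strands) was searched in the RefSeq window of 250 bases before to 50 after the first listed start of each gene, and was found in 5 of the 25 ATF4 targets with a window (20%), in 6 of the 16 tRNA synthetases (37.5%) and in 1.52% of the 8349 tested protein-coding genes with a window. The stretches around the match in both promoters, from RefSeq on GRCh38.p14, show the element in a gene whose effect grew and in a gene without a called difference, with the match in capitals, in CHAC1 as its reverse complement.
CHAC1, chr15:40953222-40953309, plus strand: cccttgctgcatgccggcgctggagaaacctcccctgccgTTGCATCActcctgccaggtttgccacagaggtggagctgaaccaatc
ASNS, chr7:97872429-97872516, minus strand: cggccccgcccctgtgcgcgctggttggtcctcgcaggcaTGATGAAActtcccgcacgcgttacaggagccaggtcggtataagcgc

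**Figure D4:**
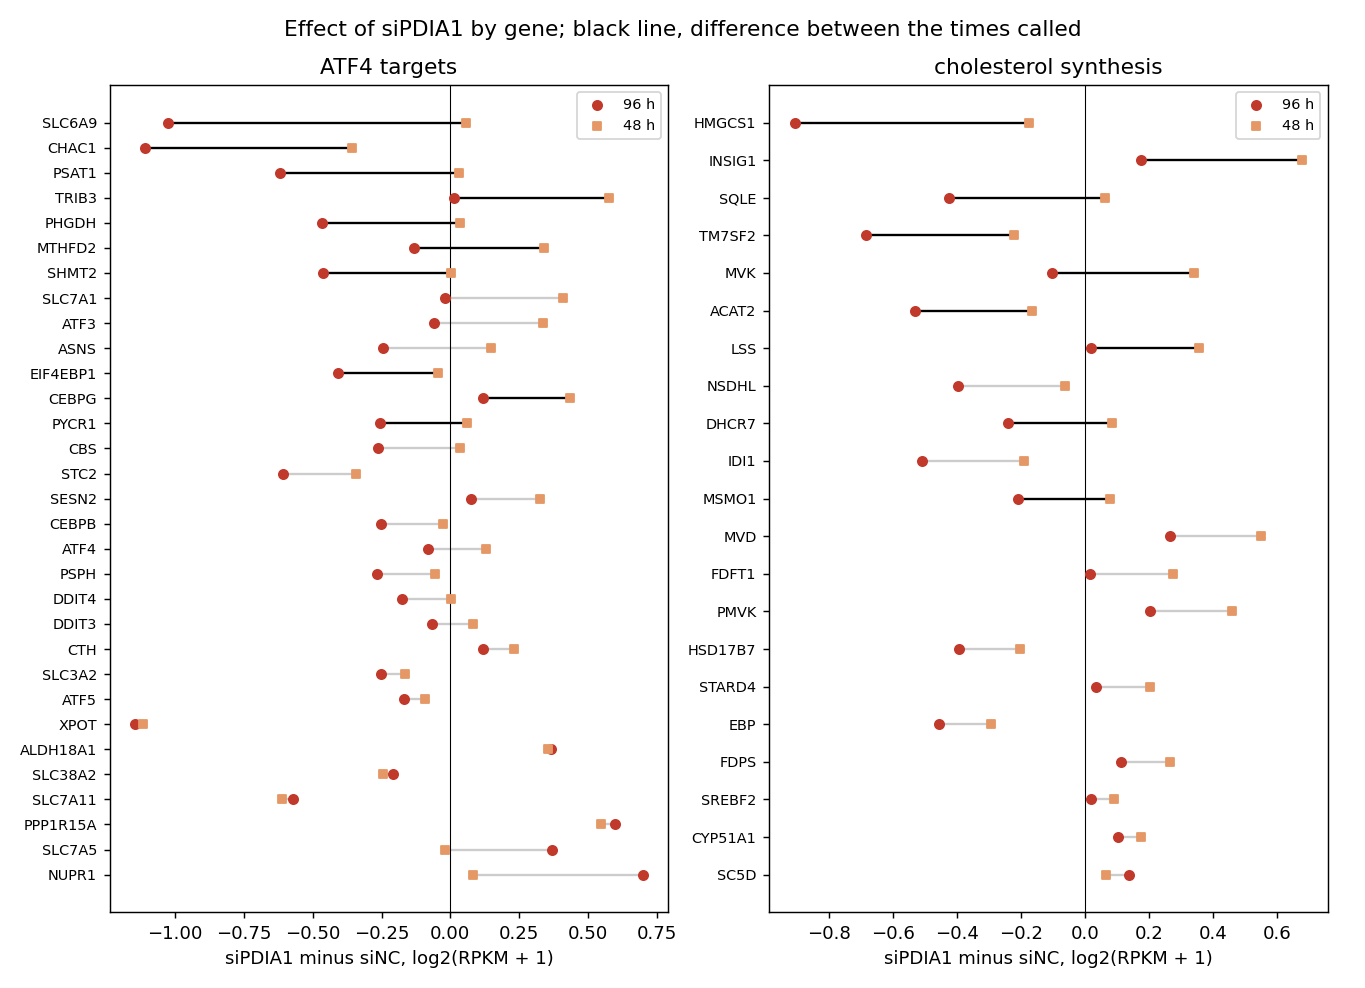
Effect of siPDIA1 (siPDIA1 minus siNC, log2(RPKM + 1)) at 96 h (circles) and 48 h (squares) for each tested ATF4 target and for the genes of cholesterol synthesis reported here, ordered by the difference between the times; black lines mark called differences. In 25 of 31 ATF4 targets and 20 of 21 cholesterol genes the 96 h value lies to the left of the 48 h value.

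The cytosolic aminoacyl-tRNA synthetases, which load amino acids onto tRNAs, followed. Of 20 tested, 6 had a called negative difference and 0 a positive one (30%, against 5.47% of all genes), with a median difference of -0.18; the list median of the effect was -0.22 at 96 h and 0.001 at 48 h. GARS1, for glycine, had 8.28, 8.72 and 8.27 RPKM after siPDIA1 and 12.2, 12.4 and 12.5 after siNC at 96 h. GARS1 at 48 h had 16.7, 18.4 and 17.2 RPKM after siPDIA1 and 17.8, 17.9 and 16.8 after siNC. The groups overlapped at 48 h and were apart at 96 h, with a difference of -0.50 ± 0.068 (adjusted p = 0.00038). YARS1, for tyrosine, and TARS1, for threonine, were late in the same way, at -0.49 ± 0.075 (adjusted p = 0.000975) and -0.33 ± 0.054 (adjusted p = 0.00172). CARS1, for cysteine, had the largest fall of the list, at -0.64 (adjusted p = 0.00206), whereas LARS1 and QARS1 had differences of 0.030 and 0.040, not called.

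Cholesterol synthesis had the largest share of called members among the 23 pathway lists. Of 24 tested, 11 had a negative difference and 0 a positive one (45.8%, against 5.47% of all genes), and 23 had a negative sign; the list median of the effect was -0.16 at 96 h and 0.082 at 48 h. HMGCS1, the cytosolic synthase that makes HMG-CoA, had 5.77, 6.36 and 6.2 RPKM after siPDIA1 and 11.02, 13.9 and 12.2 after siNC at 96 h. HMGCS1 at 48 h had 11.6, 11.3 and 10.7 RPKM after siPDIA1 and 12.2, 13.8 and 12.3 after siNC. The groups lay apart at both times, only the effect at 96 h was called, and the difference was -0.73 ± 0.11 (adjusted p = 0.00111). SQLE, the squalene epoxidase, was late too, at -0.49 ± 0.068 (adjusted p = 0.000424). INSIG1, the ER anchor that holds the sterol sensor SCAP, was a fading rise, with 33.6, 27.9 and 29.7 RPKM after siPDIA1 and 28.4, 26.7 and 25.1 after siNC at 96 h. INSIG1 at 48 h had 54.4, 52.7 and 52.8 RPKM after siPDIA1 and 34.5, 33.6 and 30.7 after siNC. LSS, the lanosterol synthase, was an early rise, with an effect of 0.019 (adjusted p = 0.733) at 96 h and 0.36 (adjusted p = 4.52e-06) at 48 h. INSIG2, a second anchor that sterols do not induce, was not in the list and so not in its counts, and it went the other way. It had 5.19, 4.64 and 5.1 RPKM after siPDIA1 and 4.75, 4.27 and 4.13 after siNC at 96 h. INSIG2 at 48 h had 2.27, 1.93 and 2.1 RPKM after siPDIA1 and 3.38, 3.18 and 3.57 after siNC. Its difference was 0.65 ± 0.12 (adjusted p = 0.00462). SREBF2, which encodes the sterol-regulated activator of the pathway, had a difference of -0.070 (adjusted p = 0.772), which was not called.

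In fatty acid synthesis, 5 of 19 tested genes had a negative difference and 0 a positive one (26.3%, against 5.47% of all genes), with a median of -0.20. ACSL3, an acyl-CoA synthetase of lipid droplets, had 12.3, 12.8 and 12.3 RPKM after siPDIA1 and 20.3, 24.5 and 22.3 after siNC at 96 h. ACSL3 at 48 h had 23.5, 23.8 and 22.7 RPKM after siPDIA1 and 23.3, 26.2 and 24.3 after siNC. It was a late fall, with a difference of -0.72 ± 0.089 (adjusted p = 0.000133). ELOVL5, an elongase of polyunsaturated fatty acids, reversed, with effects of -0.40 ± 0.046 at 96 h and 0.14 ± 0.046 at 48 h. ELOVL7, an elongase of very long chains, had 3.37, 3.24 and 3.73 RPKM after siPDIA1 and 38.3, 43.5 and 38.0 after siNC at 96 h. ELOVL7 at 48 h had 4.79, 4.92 and 4.56 RPKM after siPDIA1 and 33.4, 34.3 and 30.5 after siNC. It was a growing fall with a difference of -0.65 ± 0.11 (adjusted p = 0.00204). FASN, the fatty acid synthase, and FADS1, a desaturase, had differences of -0.43 (adjusted p = 0.00728) and -0.35 (adjusted p = 0.0183). SREBF1 and SCD did not pass the test, at 0.072 (adjusted p = 0.564) and -0.20 (adjusted p = 0.41).

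Of 54 tested genes of DNA replication, the effect was called lower for 47 at 96 h and for 25 at 48 h, and higher for 0 at 96 h and 2 at 48 h. Of all genes tested, 25.2% were called lower at 96 h and 17.4% at 48 h. The difference was called for 10, all negative (18.5%, against 5.47% of all genes), with a median of -0.22; 50 of 54 had a negative sign. RRM2, the small subunit of ribonucleotide reductase, had 7.82, 7.83 and 8.36 RPKM after siPDIA1 and 13.4, 13.7 and 13.4 after siNC at 96 h. RRM2 at 48 h had 20.5, 20.8 and 20.3 RPKM after siPDIA1 and 20.9, 22.6 and 22.6 after siNC. It fell with time in both, by 1.26 ± 0.051 after siPDIA1 and by 0.67 ± 0.051 after siNC. CHAF1B, a subunit of the chromatin assembly factor, differed by -0.53 ± 0.10 (adjusted p = 0.00492). The replication licensing genes CDC6, CDT1, MCM10 and MCM4 differed by -0.43 (adjusted p = 0.0167), -0.44 (adjusted p = 0.02), -0.51 (adjusted p = 0.00721) and -0.26 (adjusted p = 0.0311). E2F1, an activator of these genes, was reversing, with 14.4, 13.3 and 14.6 RPKM after siPDIA1 and 18.6, 14.2 and 17.5 after siNC at 96 h. E2F1 at 48 h had 27.5, 26.5 and 26.9 RPKM after siPDIA1 and 21.7, 18.2 and 20.9 after siNC. Its groups overlapped at 96 h and not at 48 h. Of the 57 genes of mitosis tested, 1, CDCA5, had a called difference (1.75%, against 5.47% of all genes), although 43 were called lower at 96 h and 32 at 48 h. The median effect of the mitosis genes was -0.41 at 96 h and -0.28 at 48 h. Their median change with time was -0.65 after siPDIA1 and -0.55 after siNC. The call of CDCA5 was lost when any 1 of 9 libraries was left out (adjusted p up to 0.08).

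The E2F site (TTT, then 2 bases of C or G, then CGC; both strands) was present in the window of 21 of the 46 replication genes that had one (45.7%), against 6.38% of 47 mitosis genes and 5.86% of all tested protein-coding genes with a window. The TTTGAA element of cell cycle promoters was present in 63.8% of the mitosis genes, in 2.17% of the replication genes and in 9.01% of all. By time class, the E2F site was present in 3.33% of 90 growing falls and in 6.67% of 120 late falls with a window. Many replication genes with a match had no called difference. PCNA, the sliding clamp of replication, and CDT1, the licensing factor, both growing falls, carry an E2F match that begins 59 and 35 bases before the start, shown here as reverse complements in capitals.
PCNA, chr20:5126634-5126721, minus strand: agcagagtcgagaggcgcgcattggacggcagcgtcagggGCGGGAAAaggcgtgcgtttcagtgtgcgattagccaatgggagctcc
CDT1, chr16:88803727-88803788, plus strand: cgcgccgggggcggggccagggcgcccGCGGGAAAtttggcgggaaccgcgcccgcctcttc
PCNA had 86.9, 88.4 and 85.5 RPKM after siPDIA1 and 119.5, 107 and 114 after siNC at 96 h. PCNA at 48 h had 129, 131 and 127 RPKM after siPDIA1 and 147, 139.6 and 139.7 after siNC. The difference was -0.24 ± 0.065 (adjusted p = 0.0414). A match is a description of the sequence and was not tied to binding.

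Of 29 tested folding genes, 4 had a positive difference and 3 a negative one (24.1%, against 5.47% of all genes). Leaving out siPDIA1 replicate 1 at 48 h left 3 called members, and leaving out siPDIA1 replicate 2 or siNC replicate 1 or 2 at 48 h left 4. The list median of the effect was 0.21 at 96 h and 0.062 at 48 h. HSPA5, the chief ER chaperone BiP, had 125, 122 and 124 RPKM after siPDIA1 and 109, 102 and 109.7 after siNC at 96 h. HSPA5 at 48 h had 94.8, 98.1 and 97.3 RPKM after siPDIA1 and 99.2, 103 and 98.8 after siNC. The siPDIA1 libraries were above siNC at 96 h and just below them at 48 h, without overlap, and the difference was 0.26 ± 0.061 (adjusted p = 0.0199); it was not called without siPDIA1 replicate 1 at 48 h (adjusted p = 0.0572) or siNC replicate 2 at 48 h (adjusted p = 0.0519). CALR, the lectin chaperone calreticulin, HYOU1, a nucleotide exchange factor of BiP, and QSOX1, a sulphydryl oxidase, differed by 0.27 (adjusted p = 0.0204), 0.22 (adjusted p = 0.0417) and 0.28 (adjusted p = 0.0156). FKBP10, a collagen prolyl isomerase, was a growing fall, at -0.30 ± 0.062 (adjusted p = 0.00966), and CLGN, a testis relative of calnexin, was a late fall, at -0.53 (adjusted p = 0.0217). GANAB, a glucosidase of N-glycan trimming, was a fading rise, with effects of 1.48 ± 0.049 at 96 h and 1.75 ± 0.049 at 48 h. Of the 24 genes of ER-associated degradation, limma called 0 (3 at unadjusted p under 0.05), and the sign of their median difference, -0.003, turned under other settings (-0.016 to 0.043).

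The ER stress element (CCAAT, 9 bases of any kind, CCACG; both strands) was found in the window of 6 of 26 folding genes (23.1%) and in 0.168% of all tested protein-coding genes with a window. HSPA5 and CALR, both late rises, hold an exact match, in capitals below and in CALR as its reverse complement.
HSPA5, chr9:125241351-125241449, minus strand: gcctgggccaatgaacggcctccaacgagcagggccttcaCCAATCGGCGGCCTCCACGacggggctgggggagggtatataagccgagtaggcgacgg
CALR, chr19:12938359-12938427, plus strand: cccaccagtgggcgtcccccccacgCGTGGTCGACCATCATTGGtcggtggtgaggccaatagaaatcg
An exact match was also found in CANX, CRELD2, ERO1B and HSP90B1, whose differences of -0.020 (adjusted p = 0.945), 0.12 (adjusted p = 0.681), 0.13 (adjusted p = 0.655) and 0.17 (adjusted p = 0.185) were not called.

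Androgen-induced and luminal genes moved in both directions. Of 23 tested androgen-induced genes, 2 had a positive difference and 5 a negative one (30.4%, against 5.47% of all genes), with a median of -0.12. KLK3, which encodes prostate-specific antigen, had 354, 342 and 355 RPKM after siPDIA1 and 306, 273 and 295 after siNC at 96 h. KLK3 at 48 h had 222, 226 and 228 RPKM after siPDIA1 and 247, 245 and 257 after siNC. It rose with time in both, by 0.63 ± 0.048 after siPDIA1 and by 0.22 ± 0.048 after siNC, and its effect was 0.27 ± 0.048 at 96 h and -0.15 ± 0.048 at 48 h. KLK2, its neighbour and paralog, had no called effect at either time, at -0.081 (adjusted p = 0.342) at 96 h and -0.13 (adjusted p = 0.138) at 48 h. TRPM8, a cold-gated calcium channel, was a growing rise, with 15.4, 13.0 and 15.3 RPKM after siPDIA1 and 2.21, 2.19 and 2.01 after siNC at 96 h. TRPM8 at 48 h had 4.42, 3.98 and 4.13 RPKM after siPDIA1 and 1.98, 2.04 and 1.68 after siNC. SLC45A3, the luminal marker prostein, was a growing fall, with 19.5, 17.6 and 16.9 RPKM after siPDIA1 and 144, 155 and 160.3 after siNC at 96 h. SLC45A3 at 48 h had 29.9, 29.5 and 29.5 RPKM after siPDIA1 and 138, 144 and 137 after siNC. FOLH1, which encodes prostate-specific membrane antigen, differed by 0.69 ± 0.075 (adjusted p = 4.46e-05), being higher after siPDIA1 at 96 h by 0.81 ± 0.053. FKBP5, an immunophilin, was raised at both times, at 0.50 ± 0.070 at 96 h and 0.82 ± 0.070 at 48 h, and its difference, -0.32 ± 0.10 (adjusted p = 0.0788), was not called. TMPRSS2, a serine protease, differed by -0.23 ± 0.061 (adjusted p = 0.0334), a call lost when any 1 of 7 libraries was left out (adjusted p up to 0.0848).

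**Figure D5:**
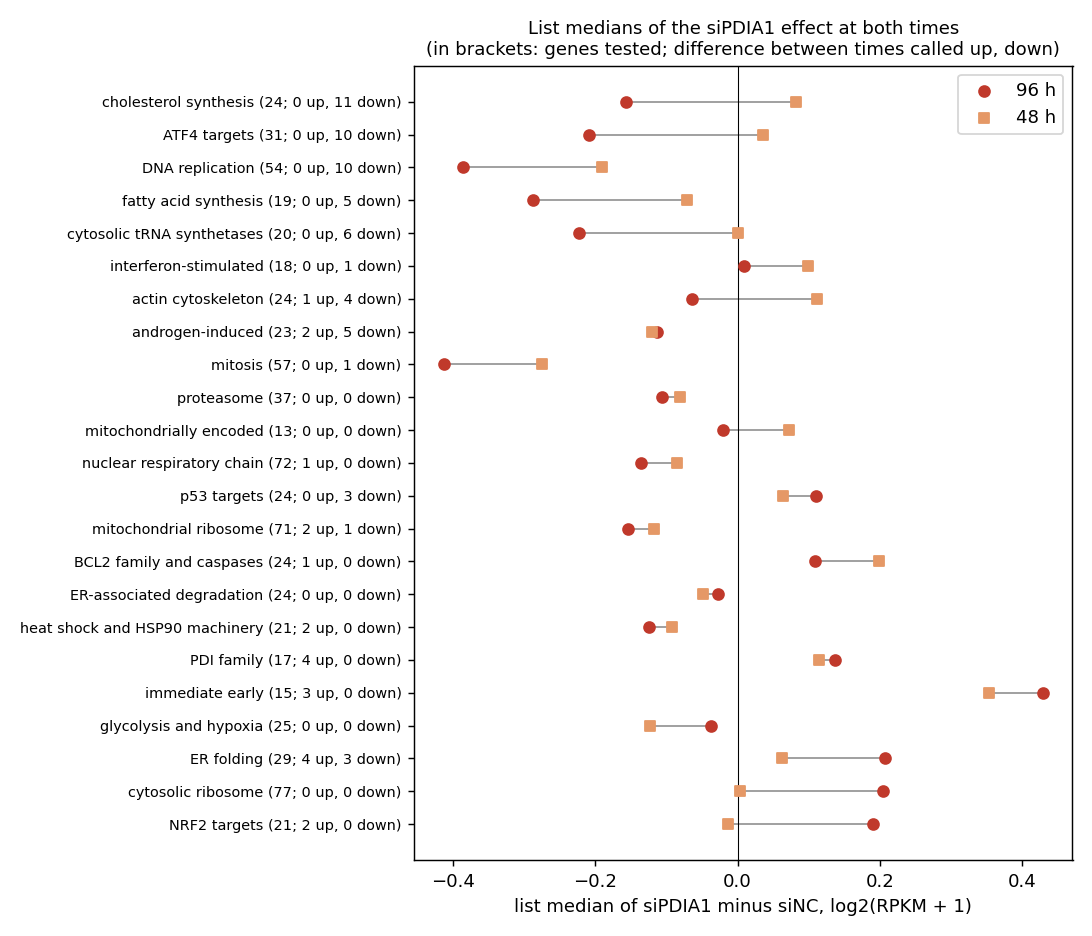
Median effect of siPDIA1 (siPDIA1 minus siNC, log2(RPKM + 1)) over the tested genes of each of 23 lists at 96 h (circles) and 48 h (squares), ordered by the median difference, with the number tested and the called differences up and down in brackets. Cholesterol synthesis and ATF4 targets stand at the top, with median differences of -0.32 and -0.25.

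Cytosolic ribosomal proteins had a positive sign of the difference in 72 of 77 genes and a median of 0.17, but no gene passed the test (limma; 0 called; 20 at unadjusted p under 0.05), and the count lay between 0 and 6 when single libraries were left out and reached 10 under other settings. At 96 h 33 of them were called higher and at 48 h 1, while 20.1% of all genes were called higher at 96 h and 16.0% at 48 h. The nuclear respiratory chain had 1 called gene of 72 (1.39%) and the mitochondrial ribosome 3 of 71 (4.23%), against 5.47% of all genes. By limma, 0 of the 37 proteasome genes, 0 of 25 of glycolysis and hypoxia and 0 of 13 mitochondrially encoded genes were called (3, 3 and 1 at unadjusted p under 0.05). Of 24 p53 targets, 3 were called, all lower: CDKN1A, FDXR and TP53I3 (12.5%, against 5.47% of all genes). Of 24 genes of the BCL2 family and caspases, BMF alone was called (4.17%, against 5.47% of all genes). Among 21 heat shock genes, HSPB8 and CRYAB had a positive difference (9.52%, against 5.47% of all genes). Among 21 NRF2 targets, 2 (9.52%) had a positive difference: TKT, a pentose phosphate enzyme, and NQO1, a quinone reductase, at 0.30 (adjusted p = 0.0092) and 0.39 (adjusted p = 0.0313). Of 15 immediate early genes, 3 had a positive difference (20%, against 5.47% of all genes): BTG1, an antiproliferative factor, at 0.91 ± 0.088 (adjusted p = 1.26e-05), FOSL2, an AP-1 subunit, at 0.62 ± 0.12 (adjusted p = 0.00726), and MYC, at 0.27 ± 0.069 (adjusted p = 0.0304). In the actin list 4 of 24 were lower, among them ACTB at -0.36 ± 0.053 (adjusted p = 0.0007), whose reads may be shared with pseudogene copies, and 1 higher (20.8%, against 5.47% of all genes). The actin list had 2 called members without siNC replicate 3 at 96 h or siPDIA1 replicate 1 or 2 at 48 h, and 3 without siPDIA1 replicate 3 at 96 h or siNC replicate 2 or 3 at 48 h. Of 18 interferon-stimulated genes, IFITM3 alone was called (5.56%, against 5.47% of all genes), at -0.35 (adjusted p = 0.0224). Leaving out 1 library at a time gave 1 to 5 called genes of the mitochondrial ribosome, 0 to 4 of the respiratory chain, 1 to 3 of the BCL2 family, 1 to 4 NRF2 targets and 1 to 2 heat shock genes. The calls of CRYAB, NQO1, MYC, IFITM3 and TP53I3 were lost when any 1 of 4, 7, 8, 5 and 2 libraries was left out, with adjusted p up to 0.0631, 0.0785, 0.0778, 0.0582 and 0.0621.

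The change with time after siPDIA1 was also set against the change with time after siPDIA5, a comparison that uses no control library but shares the siPDIA1 libraries with the results above. It was called for 1981 genes (17.0%), 903 higher and 1078 lower; centring the libraries on their medians gave 1408 higher and 691 lower. Of the ATF4 targets, 27 of 31 were called lower and 0 higher, with a median of -0.89, while 9.23% of all genes were called lower and 7.73% higher. CHAC1 had 22.2, 20.5 and 20.8 RPKM after siPDIA5 at 96 h and 5.17, 7.16 and 6.79 at 48 h, and its change differed between the knockdowns by -3.02 ± 0.16 (adjusted p = 3.48e-09). SLC1A5 had 49.9, 49.2 and 45.4 RPKM after siPDIA5 at 96 h and 35.0, 37.1 and 37.1 at 48 h, and differed by -2.08 ± 0.074 (adjusted p = 6.59e-11). DDIT3, the stress factor CHOP, and HMOX1, heme oxygenase, had no called difference of the siPDIA1 effect, at -0.15 (adjusted p = 0.775) and 0.24 (adjusted p = 0.487), while their changes with time differed between the knockdowns by -2.14 ± 0.21 and -2.13 ± 0.16. DDIT3 had 40.2, 40.6 and 43.8 RPKM after siPDIA5 at 96 h and 4.06, 6.17 and 5.25 at 48 h, against 7.07, 8.49 and 8.07 after siPDIA1 at 96 h and 4.02, 3.68 and 6.51 at 48 h. In the positive direction TRPM8 and SDCBP2 differed by 1.75 ± 0.14 and 1.8 ± 0.28, and ACTA2, smooth muscle actin, by 1.55 ± 0.11. S100A10, a partner of annexin A2, and THRSP, a regulator of lipogenesis, differed by 2.03 ± 0.50 and 1.85 ± 0.33. Of the 639 genes whose siPDIA1 effect differed between the times, 279 (43.7%) were called in this comparison. In 239 of these the sign was that of the difference of the siPDIA1 effect, and in the rest it was opposite. Of the 238 growing genes 117 were called, 108 with the same sign. Among the growing rises, OR51E1, PLA2G2A and CLU did not differ detectably between the knockdowns, at 0.38 (adjusted p = 0.213), -0.41 (adjusted p = 0.148) and 0.21 (adjusted p = 0.136). Mitosis genes were called higher for 23 of 57 and lower for 0, and cytosolic ribosomal proteins higher for 44 of 77 and lower for 0.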

How the data were processed

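RNA-seq of 18 LNCaP libraries (6 groups of 3) was analysed from the table of RPKM values per gene that the authors deposited. Per the submitters' processing notes, the tools included STAR 2.7.0f, cutadapt 1.8 and featureCounts, and also R 3.4.1 with DESeq2. How each entered the RPKM values is not stated, and libraries were amplified for 15 PCR cycles, per the labels' protocols. Depth was estimated from low values, of which 99.6 to 99.8% were whole multiples of 1 read (within 0.1 read); duplicates of PCR are counted, so the estimates do not count molecules.

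Genes with a mean of at least 1 RPKM over the 18 libraries (11685 of 59385) were tested on log2(RPKM + 1) with limma 3.58.1 in R 4.3.3 (6 group means, mean-variance trend, two-sided moderated tests, Benjamini-Hochberg adjustment per comparison). Errors are standard errors of the fit, and the log2(RPKM + 1) scale understates changes of low genes. Names and coordinates come from GENCODE 29 (GRCh38), and promoters from RefSeq (GRCh38.p14), with the first listed start of each gene. In simulated data of 11685 genes, the fit recovered 48 of 100 genes given a difference of 0.5 on the log2 scale and 90 of 100 given a difference of 1. It also called 7 genes given none. Named genes were drawn from P4HB, PDIA5, KLK3, KLK2, TMPRSS2 and FKBP5, the 4 protein-coding genes with the largest difference per class and direction, up to 3 called members per list, and the 5 largest differences each way between the knockdowns; genes outside this rule were chosen after their values were seen. Some genes that the rule or the lists hold are not reported here, although the counts and medians include them. The members and lists were chosen with earlier results of these data known. The alternatives were another pseudocount, other filters, 2 rescalings, a replicate block, a fit without siPDIA5, no trend, a stricter threshold and leaving out each library.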

Additional observations from a re-analysis of the deposited data

Results flagged for a closer look

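The effect of siPDIA1 differed between 96 h and 48 h, by a test of the difference itself, for 639 genes. For the named genes of each class the difference, 96 h minus 48 h on log2(RPKM + 1), was as follows. The targeted gene P4HB differed by 0.55, its knockdown leaving more RNA at 96 h than at 48 h.

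Growing rises were MMP7 (2.49), SYT4 (1.88), OR51E1 (1.82) and CAMK2N1 (1.74), and growing falls were HES6 (-1.27), SECTM1 (-1.13) and CAPN5 (-0.90). Late rises were IGFBP3 (1.96), SDCBP2 (1.83), TLE1 (1.52) and NOS3 (1.45), and late falls were S100P (-1.64), TTR (-1.36), SLC1A5 (-1.31) and ID2 (-1.23). Genes lowered at 96 h and raised at 48 h were ID1 (-1.24), PCK2 (-0.82) and ADM2 (-0.72), and genes raised at 96 h and lowered at 48 h were VPREB3 (1.17), ACKR3 (0.95), UGT2B15 (0.93) and BMX (0.75). Rises called at 48 h alone were RASD1 (-0.73), GLYCTK (-0.65), ROR1 (-0.64) and IGF1R (-0.61). At 96 h the effect was not called but negative for RASD1 (-0.34, adjusted p = 0.0593), GLYCTK (-0.24, adjusted p = 0.131) and IGF1R (-0.28, adjusted p = 0.0519). For ROR1 it was 0.019. Falls called at 48 h alone were ANP32E (0.70), INSIG2 (0.65), SEMA6A (0.61) and TMEM123 (0.58). Fading rises were ZCCHC3 (-0.63), INSIG1 (-0.51), BICD2 (-0.46) and LPCAT1 (-0.43), and fading falls other than P4HB were KCTD2 (0.62), SLC9A7 (0.51) and FZD6 (0.51). The calls of RASD1, GLYCTK, IGF1R, BICD2, SLC9A7, FZD6, VPREB3 and BMX were each lost when 1 of 3 to 10 libraries was left out, with adjusted p up to 0.107.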

How the results depend on the processing

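The difference of the siPDIA1 effect was positive for 292 genes and negative for 347. No named gene with a called difference turned its sign under any alternative. Of 89 named genes, 63 had the same outcome, called or not called, under every listed alternative and 68 under every left-out library. Deviations of same-numbered siPDIA1 and siNC libraries correlated weakly, at -0.074 to 0.14, with 2 of 18 pairs over 0.1. Both were of siNC at 96 h and 48 h, where replicates 1 and 2 correlated at 0.13 and 0.14 with their own number and at -0.14 and -0.12 with each other's. Of all 18 libraries, siPDIA5 included, 9 correlated best with their own number. These values do not settle whether the numbers pair the samples. A replicate block gave 267 positive and 323 negative differences. Without a filter on low values, which tested 39231 genes, 240 differences were positive and 225 negative, and 1004 genes were lower with time after siNC. In that fit 150 effects were growing, 11 fading and 18 reversing. At a mean of at least 5 RPKM, which tested 6493 genes, 1461 were higher after siPDIA1 than after siNC at 96 h. In the main fit 2344 of 11685 were. With libraries centred on their medians, 335 differences were positive and 282 negative, and the change with time differed between the knockdowns for 1408 genes higher and 691 lower. Rescaling all libraries to the same distribution (quantile normalization) gave 411 positive and 351 negative differences. Which sign was more frequent thus depended on the rescaling and the filter. In a fit of 12 libraries without siPDIA5, 18 effects were fading. At adjusted p under 0.01 the counts were 128 positive and 140 negative differences, 1322 genes lower at 48 h, 863 higher and 1258 lower with time after siPDIA1, 623 higher and 709 lower with time after siNC, 430 higher and 476 lower between the knockdowns, and 100 growing, 8 fading, 122 late, 26 early and 12 reversing effects.

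Leaving out 1 library at a time gave 199 to 347 positive and 229 to 478 negative differences, 2064 to 2368 genes higher and 2534 to 2955 lower at 96 h, 1542 to 1980 higher and 1646 to 2179 lower at 48 h, 1114 to 1594 higher and 1556 to 2375 lower with time after siPDIA1, 801 to 1692 higher and 854 to 2190 lower with time after siNC, and 671 to 824 higher and 795 to 983 lower between the knockdowns. The classes held 156 to 314 growing, 13 to 42 fading, 192 to 338 late, 29 to 94 early and 21 to 36 reversing genes. The cause of these shifts was not tested. The counts of effects and time changes under the alternatives, and of left-out libraries between the knockdowns, were added after seeing the data. With 3 libraries a group the median standard error of a difference was 0.129 on the log2 scale, so small differences may not pass the test. List medians kept their sign except for mitochondrially encoded genes, the nuclear respiratory chain, p53 targets, the mitochondrial ribosome, the BCL2 family, ER-associated degradation and NRF2 targets.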

Other observations

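Besides the genes described above, 18 protein-coding genes had a called difference of at least 2-fold on the log2(RPKM + 1) scale. All were positive, and they were chosen after their values were seen. Several encode secreted or cell surface proteins. PLA2G2A, a secreted phospholipase A2, had 81.4, 77.1 and 83.6 RPKM after siPDIA1 and 8.54, 7.45 and 9.22 after siNC at 96 h. PLA2G2A at 48 h had 14.1, 15.0 and 13.5 RPKM after siPDIA1 and 5.79, 3.17 and 4.78 after siNC, and its difference was 1.65 ± 0.18 (adjusted p = 5.27e-05). After siPDIA5, PLA2G2A had 388, 377 and 414 RPKM at 96 h and 49.7, 51.9 and 61.8 at 48 h. CLU, the extracellular chaperone clusterin, had 21.6, 23.6 and 23.6 RPKM after siPDIA1 and 6.89, 7.62 and 7.15 after siNC at 96 h. CLU at 48 h had 5.5, 5.68 and 6.1 RPKM after siPDIA1 and 3.79, 4.24 and 4.45 after siNC. The groups were apart at each time, and the difference was 1.15 ± 0.093 (adjusted p = 1.89e-06). After siPDIA5, CLU had 38.35, 44.1 and 39.8 RPKM at 96 h and 12.4, 12.2 and 13.4 at 48 h. SDC2, a heparan sulphate proteoglycan, and LAMB3, a chain of laminin-332, differed by 1.29 (adjusted p = 8.76e-05) and 1.51 (adjusted p = 9.14e-06).

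Others act inside the cell. LDOC1, a nuclear leucine zipper protein, had 118, 113 and 119 RPKM after siPDIA1 and 24.0, 25.9 and 24.8 after siNC at 96 h. LDOC1 at 48 h had 41.2, 39.9 and 39.5 RPKM after siPDIA1 and 26.3, 24.3 and 26.96 after siNC; the siNC libraries lay close together at both times. GABARAPL1, an autophagosome protein of the ATG8 family, was a late rise, with 17.0, 17.0 and 16.7 RPKM after siPDIA1 and 9.01, 8.08 and 7.67 after siNC at 96 h. GABARAPL1 at 48 h had 9.02, 9.21 and 9.25 RPKM after siPDIA1 and 10.7, 9.94 and 9.63 after siNC, and its difference was 1.08 ± 0.074 (adjusted p = 2.22e-07). SOX9, a transcription factor of epithelial progenitors, and DIO3, which inactivates thyroid hormone, were growing rises, at 1.05 (adjusted p = 0.00675) and 1.67 (adjusted p = 0.000107). DIO3 rose less with time after siPDIA1 than after siPDIA5, the changes differing by -1.88 (adjusted p = 1.5e-05). TUBA1A and H2BC4, which have near-identical relatives and whose reads are therefore uncertain, differed by 1.08 and 1.11.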
